A study of Mus musculus with 6 samples.

Results

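The proteasome genes expressed in mouse testis were compared between testes lacking the long non-coding RNA 1700052I22Rik and wild-type testes. Members were all protein-coding genes whose symbol is Psma, Psmb, Psmc, Psmd, Psme, Psmf or Psmg followed by a number, without Psmc3ip, which encodes a meiotic recombination factor that only shares the name. This gave 49 of the 54532 genes in the deposited table, on 16 chromosomes. RNA from whole testis was sequenced in 6 libraries, 3 from 1700052I22Rik-KO testes (KO) and 3 from WT testes. The labels give genotype and tissue. For both groups the strain, the age and the deleted stretch were not stated, nor whether libraries came from separate animals, so a p-value here weighs the difference against a spread between libraries that may be technical.

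The proteasome degrades proteins that carry ubiquitin. Its barrel-shaped core particle is built from stacked rings of alpha and beta subunits, with the proteolytic sites on beta subunits inside, and a regulatory particle with a ring of ATPases recognises, unfolds and feeds in the substrate. Interferon-inducible beta subunits can replace the constitutive catalytic ones. In male germ cells the alpha subunit Psma8 takes the place of its paralog Psma7, giving the spermatoproteasome, and the activator Psme4 is known for its part in degrading core histones when spermatids replace histones with protamines.

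Library totals lay between 17635045 and 18117593 counts, of which proteasome genes held 0.591% to 0.622%. The targeted transcript had 0, 0 and 0 reads in KO 1 to KO 3, out of 53537734, which allows up to 3 counts over the group, and 185, 175 and 218 reads in WT 1 to WT 3. Germ cell markers were abundant, the 10 spermatocyte markers summing to 5666 ± 280 CPM (TMM-normalised) in KO and 5482 ± 146 CPM in WT (SD, n = 3 each). KO 2 and WT 1 stood apart from the other 4 libraries on the leading principal component of all tested genes, at 30.2 and 22.8 against -17.5 to -6.98. The low-count filter kept 48 of the 49 members, which were tested among 19320 genes. The exception was Psmb11, the beta subunit of the thymus proteasome, with 4, 0 and 1 reads in KO and 1, 2 and 0 in WT.

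Promoter sequences from RefSeq (build GRCm38.p6, 250 bases before to 50 after the annotated start) were matched by symbol for 41 of the 49 members, with 44 windows. Psma8 and Psmb7 were among the members without a window. They are shown for the activator Psme4, the catalytic subunits Psmb5 and Psmb6, the immunosubunit Psmb9, and for Psma6, whose transcript level set it apart from the other alpha subunits and which has 2 annotated starts. Capitals mark the core letters TGACNNNGC of the antioxidant response element, bound by the proteasome regulator that Nfe2l1 encodes, and the letters CCAAT, each on either strand.
Psme4, chr11:30771525-30771824, plus strand: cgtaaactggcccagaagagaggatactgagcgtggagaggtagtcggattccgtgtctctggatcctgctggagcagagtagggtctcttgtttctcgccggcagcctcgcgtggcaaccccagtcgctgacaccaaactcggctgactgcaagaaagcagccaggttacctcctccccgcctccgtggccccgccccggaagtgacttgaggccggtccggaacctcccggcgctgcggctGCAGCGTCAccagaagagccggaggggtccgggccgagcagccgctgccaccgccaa
Psmb5, chr14:54617946-54618245, minus strand: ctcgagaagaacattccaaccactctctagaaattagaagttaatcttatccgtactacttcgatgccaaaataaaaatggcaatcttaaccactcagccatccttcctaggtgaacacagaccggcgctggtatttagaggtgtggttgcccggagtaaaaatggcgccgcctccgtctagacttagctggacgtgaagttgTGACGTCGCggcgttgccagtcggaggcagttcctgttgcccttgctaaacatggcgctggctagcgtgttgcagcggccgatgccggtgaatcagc
Psmb6, chr11:70525107-70525406, plus strand: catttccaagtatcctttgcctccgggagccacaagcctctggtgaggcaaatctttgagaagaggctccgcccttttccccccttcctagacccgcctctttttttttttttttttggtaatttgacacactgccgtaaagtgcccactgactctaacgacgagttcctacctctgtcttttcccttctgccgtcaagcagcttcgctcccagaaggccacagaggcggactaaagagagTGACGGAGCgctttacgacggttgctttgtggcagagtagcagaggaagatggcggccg
Psmb9, chr17:34187281-34187580, minus strand: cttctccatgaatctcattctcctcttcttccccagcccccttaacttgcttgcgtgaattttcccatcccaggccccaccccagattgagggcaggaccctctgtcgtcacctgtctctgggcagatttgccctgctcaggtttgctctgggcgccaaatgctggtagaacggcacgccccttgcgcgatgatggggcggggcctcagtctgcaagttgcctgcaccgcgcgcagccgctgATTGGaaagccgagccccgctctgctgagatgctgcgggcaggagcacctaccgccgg
Psma6, chr12:55383972-55384271, plus strand: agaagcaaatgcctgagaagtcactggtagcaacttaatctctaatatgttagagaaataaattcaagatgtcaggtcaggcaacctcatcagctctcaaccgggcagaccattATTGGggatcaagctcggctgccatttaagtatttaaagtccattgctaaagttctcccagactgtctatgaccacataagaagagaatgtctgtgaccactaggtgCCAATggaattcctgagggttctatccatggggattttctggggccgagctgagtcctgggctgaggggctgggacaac
Psma6, chr12:55398575-55398874, plus strand: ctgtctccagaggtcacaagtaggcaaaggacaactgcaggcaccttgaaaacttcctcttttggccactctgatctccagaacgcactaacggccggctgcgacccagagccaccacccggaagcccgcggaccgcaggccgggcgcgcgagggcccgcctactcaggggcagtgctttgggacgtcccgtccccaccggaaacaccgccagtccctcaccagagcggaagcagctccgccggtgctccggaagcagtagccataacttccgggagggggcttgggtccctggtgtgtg
The element's letters began 7 bases before the start of Psme4, where they read on the opposite strand, 9 bases before that of Psmb6 and 47 bases before that of Psmb5. The letters CCAAT lay on the opposite strand 8 bases before the start of Psmb9, and 136 bases (opposite strand) and 29 bases before the upstream start of Psma6. The downstream window of Psma6 held neither motif. The windows of the immunosubunits Psmb8 and Psmb10, not shown, also held neither. The element's letters occurred in 6 of the 44 member windows (13.6%), those of Psmb5, Psmb6, Psmc6, Psmd9, Psmd12 and Psme4, against 12.4% of all 32851 windows. CCAAT occurred in 31.8% of member windows and 37.4% of all windows. The letters GAAANNGAA, part of the interferon-stimulated response element, were found in 7 member windows (15.9%, against 8.56% of all), those of Psmb3, Psmb4, Psmc2, Psmd4, Psmd9, Psme1 and Psmg4, and the cAMP response element TGACGTCA in 0 (1.79% of all). All were searched on both strands, TGACGTCA shares its opening letters with the antioxidant response element core, and no match was taken as a site.

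Transcripts of the core particle's constitutive subunits differed widely in level, although each ring holds its subunits in equal number. Levels between genes are given as CPM per kilobase of the principal GENCODE transcript. Psma6 was far above the rest of the alpha ring, at 464 ± 10.3 in KO and 430 ± 19.3 in WT (SD, n = 3 each). The next alpha subunit, Psma4, stood at 59.6 ± 2.56 in KO and 57.3 ± 1.26 in WT. Psma6 was thus 7.79-fold above Psma4 in KO and 7.50-fold in WT, and it was 33.2-fold above the lowest, Psma2, in KO and 27.9-fold in WT. Per kilobase of the deposited gene length Psma6 was also the highest, at 392 in KO and 363 in WT. No 50-base window of the principal Psma6 transcript was shared with another annotated gene. The same held for Psma1 and Psma7. Per kilobase of principal transcript these stood at 34.81 and 30.61 in KO and 35.44 and 32.01 in WT. The other alpha subunits shared windows with other genes, 31.5% for Psma4, 55.4% for Psma5, 22.02% for Psma3 and 3.53% for Psma2. Whether this lowered their counts, and so widened the gaps to Psma4 and Psma2, was not tested. In the beta ring the span was smaller, with Psmb6 highest (184 ± 19.2 in KO, 197 ± 21.5 in WT) and Psmb2 lowest (33.8 ± 0.113 in KO, 37.8 ± 3.38 in WT). The ATPase ring was led by Psmc3 (424 ± 10.2 in KO, 431 ± 16.7 in WT) and Psmc2 (228 ± 4.97 in KO, 220 ± 5.35 in WT), and Psmc6 was lowest, at 23.2 ± 1.07 in KO and 23.3 ± 2.64 in WT. The span of levels within the rings thus came from a few subunits in both genotypes.

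**Figure D1:**
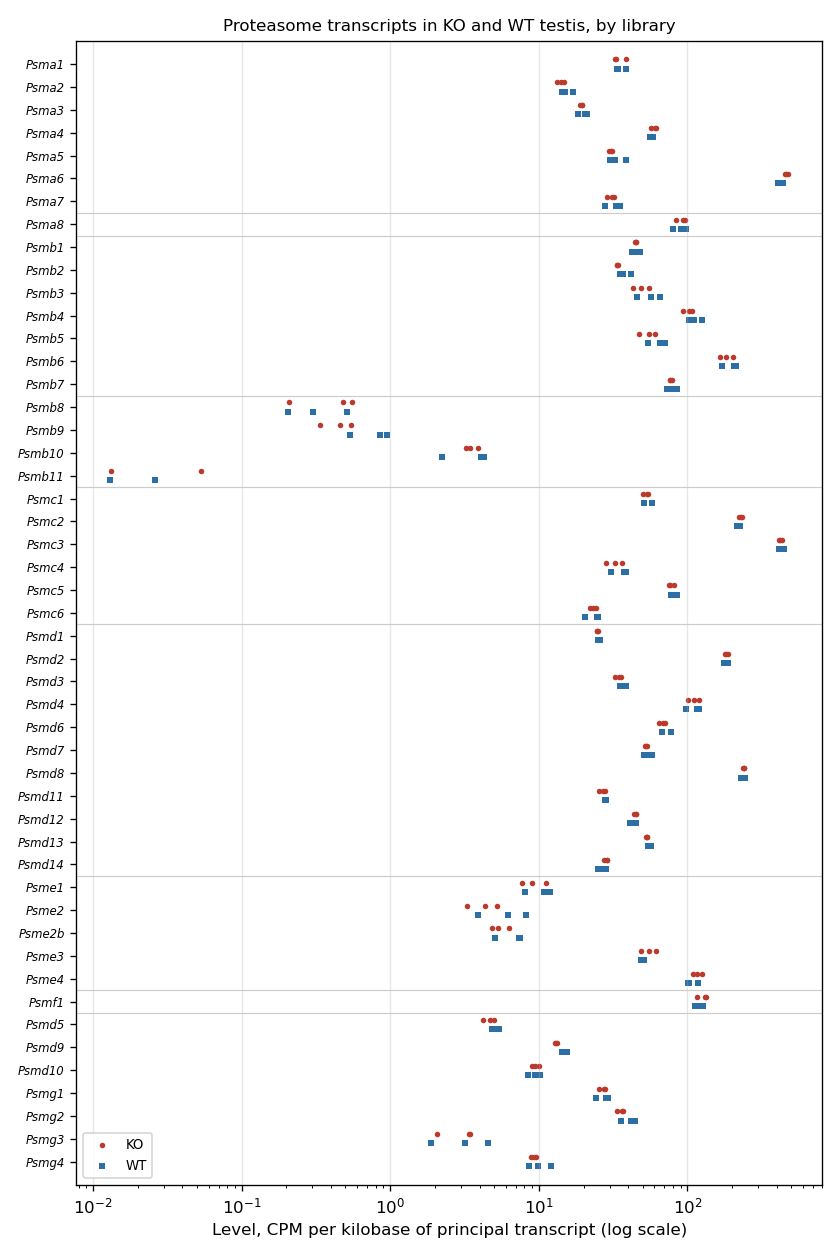
Level of each of the 49 proteasome genes in CPM per kilobase of principal transcript (log axis), with 1 point per library, KO circles above WT squares and grey lines between subunit groups. Libraries at 0 reads of Psmb11 are not drawn. Psma6 lies at 456 to 476 in KO and 407 to 441 in WT. Psmc3 lies at 416 to 435 in KO and 413 to 446 in WT, and Psmb8, Psmb9 and Psmb11 lie below 1.

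The testis alpha subunit gene was abundant in both genotypes. Psma8 (ENSMUSG00000036743, chromosome 18, 14706151 to 14762299, mm10) had 141, 162 and 159 CPM in KO 1 to KO 3 and 153, 167 and 135 CPM in WT 1 to WT 3. The groups overlapped, with both extremes in WT. Its log2 fold change of KO over WT was 0.03 with a 95% interval of -0.17 to 0.22 (edgeR's quasi-likelihood F-test, Benjamini-Hochberg adjusted p = 0.988), and -0.0048 without KO 2 and -0.049 without WT 3. Psma7, its paralog of other tissues, had 29.1, 26.4 and 28.3 CPM in KO and 25.7, 32.0 and 30.1 CPM in WT, again overlapping (log2 fold change -0.06, 95% interval -0.30 to 0.17). Per deposited gene length Psma8 exceeded Psma7 by 9.98-fold in KO and 9.37-fold in WT (geometric means of the libraries' ratios). Per principal transcript the excess was 2.97-fold in KO and 2.79-fold in WT, because the deposited length of Psma7 is 3.36 times its principal transcript. The log2 ratio per deposited length was 3.32 ± 0.173 in KO and 3.23 ± 0.204 in WT (SD, n = 3 each), a difference of 0.091 that was smaller than either SD (two-sided exact permutation test, p = 0.6, 0.9 adjusted over 6 ratios). With 3 libraries against 3 this test cannot give a p below 0.1.

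Psme4 (ENSMUSG00000040850, chromosome 11, 30771726 to 30880361) had the most reads of all members in KO 2, KO 3 and WT 1, and Psmc3 in KO 1, WT 2 and WT 3. Psme4 stood at 703, 813 and 758 CPM in KO and 760, 661 and 658 CPM in WT. WT 1 lay among the KO libraries and above 2 of them, so the groups overlapped. The log2 fold change was 0.13 (95% interval -0.03 to 0.29, adjusted p = 0.965 in edgeR), and leaving out 1 library moved it between 0.081 and 0.20. The interval excludes a change of 1.5-fold in either direction.

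The other activators differed from Psme4 in level and in how they varied. Psme3, which encodes the nuclear activator subunit, had 146, 131 and 164 CPM in KO and 129, 131 and 135 CPM in WT. KO 3 was highest and KO 2 lay within the WT range (log2 fold change 0.16, 95% interval -0.03 to 0.34, adjusted p = 0.965 in edgeR). Without KO 3 it was 0.069, and without KO 2 it was 0.24 (edgeR, unadjusted p = 0.0144, adjusted p = 0.527). The ratio of Psme4 to Psme3 per deposited length was close to its WT value, with log2 ratios of 0.86 ± 0.232 in KO and 0.88 ± 0.143 in WT (SD, n = 3 each; exact permutation test, p = 0.9). Psme1 and Psme2 encode the interferon-inducible activator subunits. Psme1 had 12.4, 8.62 and 9.99 CPM in KO and 9.04, 13.2 and 12.1 CPM in WT. Psme2 had 5.06, 3.18 and 4.15 CPM in KO and 3.77, 7.91 and 6.0 CPM in WT (log2 fold change -0.51, 95% interval -1.06 to 0.04, adjusted p = 0.965 in edgeR). In both genes KO 2 was lowest and WT 1 was the lowest WT library. Leaving out WT 1 moved Psme2 to -0.75 and leaving out WT 2, its highest library, moved it to -0.24. Of the 50-base windows of the principal Psme2 transcript 59.3% also occur in other genes, chiefly in Psme2b, so reads of this pair may not be assignable, and Psme2b stood at -0.28. Psme4 over the sum of Psme1 and Psme2 had log2 ratios of 3.30, 4.08 and 3.71 in KO and 3.86, 2.91 and 3.14 in WT. They overlapped through WT 1, and the difference was 0.395 (exact permutation test, p = 0.3, 0.6 adjusted over 6 ratios). It was within the SD of the WT libraries (0.494) and just above that of the KO libraries (0.391).

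Immunosubunits were scarce beside the constitutive subunits they can replace. Psmb8, Psmb9 and Psmb10 are the interferon-inducible counterparts of Psmb5, Psmb6 and Psmb7. Together the 3 immunosubunits had 6.75, 5.05 and 5.95 CPM in KO and 3.99, 7.69 and 6.99 CPM in WT, whereas the 3 constitutive subunits had 308, 263 and 283 CPM in KO and 271, 329 and 316 CPM in WT. Psmb10 made up most of the immunosubunit reads, with 5.12, 4.26 and 4.54 CPM in KO and 2.94, 5.57 and 5.34 CPM in WT. WT 1 was lowest and the groups overlapped (log2 fold change 0.01, 95% interval -0.49 to 0.51, and -0.23 without WT 1). Psmb8 rested on 16, 6 and 14 reads in KO and 6, 15 and 9 in WT, and its 95% interval of -0.77 to 1.34 includes a 2-fold difference in the upward direction.

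Psmb9 (chromosome 17, 34181988 to 34187764, minus strand) had 0.731, 0.454 and 0.617 CPM in KO and 0.721, 1.28 and 1.16 CPM in WT, from 13, 8 and 11 reads in KO and 13, 23 and 21 in WT. The groups overlapped only through WT 1, which lay just under KO 1. Its log2 fold change of -0.80 was the lowest of the members (95% interval -1.65 to 0.05, adjusted p = 0.965 in edgeR). The gene overlaps Tap1 on the opposite strand, which shares 12.5% of the 50-base windows of the principal Psmb9 transcript, and how the counting treated strand was not stated. Psmb9 over Psmb6, per deposited length, had log2 ratios of -8.71, -9.06 and -8.78 in KO and -8.48, -7.97 and -8.09 in WT. All 3 KO ratios lay below all 3 WT ratios, a difference of -0.67 (exact permutation test, p = 0.1, the smallest that 3 against 3 allows, 0.6 adjusted over 6 ratios). KO 1 and WT 1 had 13 Psmb9 reads each, so their ratios differed through Psmb6, with 2886 and 2474 reads. The differences of the other pairs were 0.48 for Psmb8 over Psmb5 (p = 0.3, 0.6 adjusted) and 0.091 for Psmb10 over Psmb7 (exact permutation test, p = 1, 1 adjusted).

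**Figure D2:**
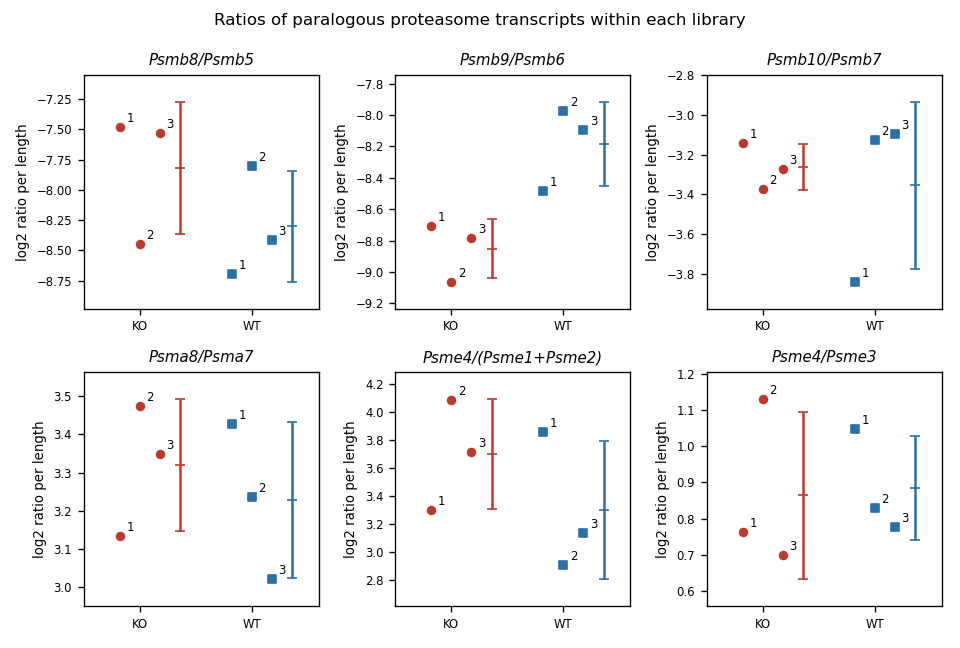
log2 ratios of paralogous transcripts per deposited gene length within each library, with 1 numbered point per library, KO circles left of WT squares, and bars for the mean ± SD (n = 3 each). The KO points lie below all WT points for Psmb9/Psmb6, at -9.06 to -8.71 against -8.48 to -7.97, and the groups overlap in the other 5 panels.

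Markers of macrophages and other immune cells, which carry immunosubunits, varied between libraries too. Of 20 such genes 19 were tested and 18 had a log2 fold change below 0, with a median of -0.34, and edgeR gave 4 of them p under 0.05 before adjustment (21.1%, against 4.63% of all genes), all of them lower, and 0 were called. Of all genes tested 50.7% lay below 0. The summed level of the 20 immune markers was 441, 317 and 428 CPM in KO and 379, 409 and 455 CPM in WT, with none of the 20 at 0 reads in any library. KO 2 and WT 1 were the lowest libraries of their genotypes in this sum, in that of the 3 immunosubunits and in those of the Leydig, Sertoli, spermatogonia, spermatocyte and interferon lists. Among the marker lists the ratio of the highest to the lowest library was largest for the 6 markers of Leydig cells, which make testosterone, with 616, 226 and 415 CPM in KO and 207, 812 and 633 CPM in WT. All 6 had a log2 fold change below 0, with a median of -0.41, and 1 had an unadjusted p under 0.05 (16.7%, against 4.63% of all genes). The 8 Sertoli cell markers summed to 1562, 1551 and 1611 CPM in KO and 1600, 1824 and 1789 CPM in WT. Of these 8 genes 6 were below 0, with a median of -0.19 and 1 at an unadjusted p under 0.05 (12.5%). The 8 spermatogonia markers had 5 below 0, a median of -0.09 and 1 at that threshold (12.5%). Of 15 interferon and antigen presentation genes 13 were tested, with 10 below 0, a median of -0.16 and summed levels of 251 to 288 CPM in KO and 267 to 321 CPM in WT, and 2 of the 13 had an unadjusted p under 0.05 (15.4%), both lower. The part of immune, Leydig and Sertoli cells in the values of Psmb8, Psmb9, Psmb10, Psme1 and Psme2 was not tested, and in whole testis fewer cells of a type and less RNA per cell cannot be told apart. Spermatocyte, round spermatid and elongating spermatid markers had median log2 fold changes of 0.01, 0.02 and -0.0015, with 0 of 26 at an unadjusted p under 0.05.

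Over all members the comparison of KO with WT testes gave no call. Of 48 tested proteasome genes 0 had an adjusted p under 0.05 in edgeR's quasi-likelihood test, where the share over all genes was 0.00518%, 1 gene of 19320, the target itself. DESeq2 and limma-voom also called 0 members. At an unadjusted p under 0.05 there was 1 member, 2.08% of those tested, against 4.63% of all genes (2.41% higher and 2.22% lower in KO), and it was lower. The 3 KO and 3 WT values did not overlap for 4 members (8.33%, against 9.32% of all genes). These were Psma6 with KO above, as in 4.69% of all genes, and Psmb2, Psmd9 and Psmd13 with KO below, as in 4.63%. For 43 of the 48 the 95% interval of the fold change excluded a change of 1.5-fold in either direction. The exceptions were Psmb8, Psmb9, Psme2, Psme2b and Psmg3, all under 10 CPM.

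**Figure D3:**
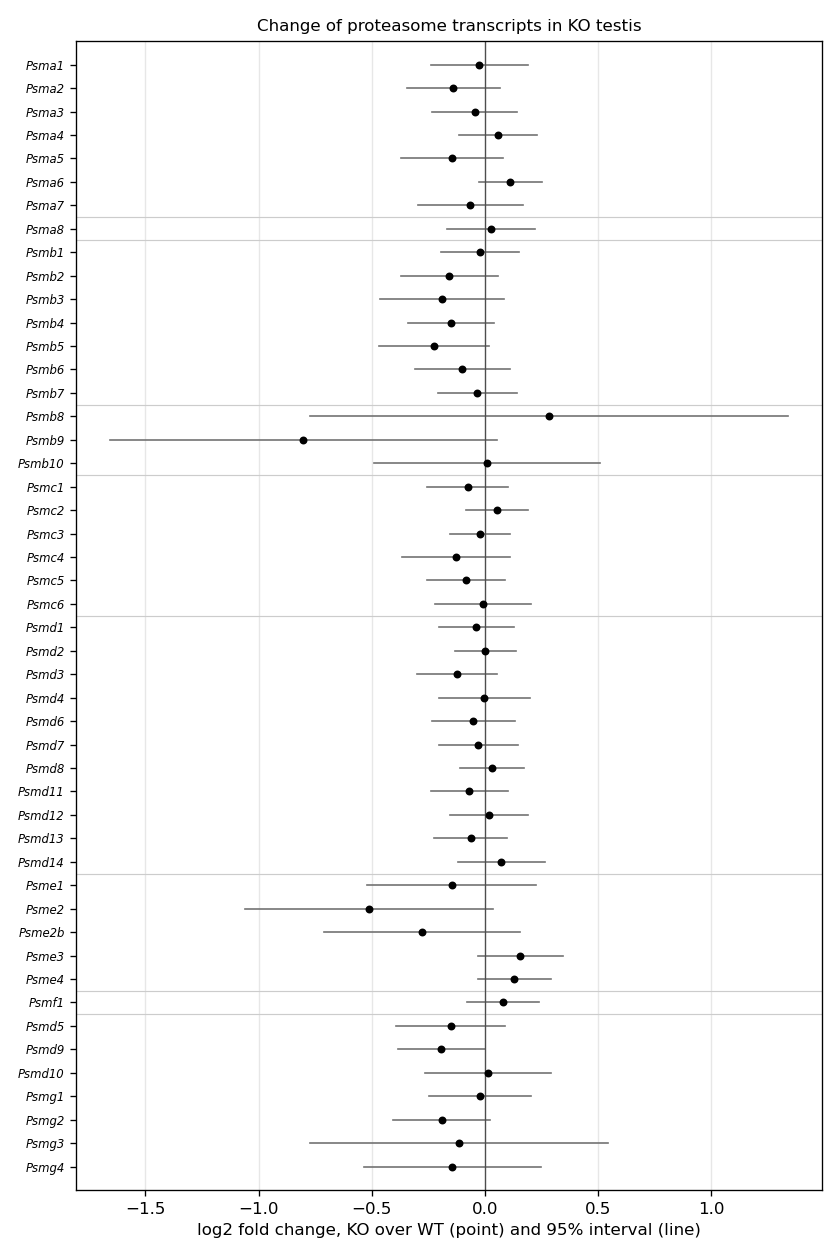
log2 fold change of KO over WT (points) with its 95% interval from edgeR (lines) for the 48 tested proteasome genes, grouped as in the plot of levels. All intervals but that of Psmd9, which ends at the 0 line, include 0, and Psmb9 lies lowest at -0.80.

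Small shifts below 0 predominated in most subunit groups. Below 0 lay 5 of 7 alpha ring, 7 of 7 beta ring and 5 of 6 ATPase genes. So did 7 of 11 other regulatory particle, 6 of 7 assembly chaperone and 3 of 5 activator genes. Of the 3 tested immunosubunits 1 lay below 0, and Psma8 and Psmf1 lay above it. The median log2 fold change of the 48 members was -0.05 with 34 of them (70.8%) below 0, while over all tested genes the median was -0.0025 with 50.7% below 0. This lean depended on WT 2, the highest library for 28 of the 49 members. Without WT 2 the members' median was -0.0021 with 24 of 48 below 0. The lean remained with any other library left out, with 33 to 35 of 48 below 0. The median was then between -0.088 (without WT 1) and -0.026 (without KO 2). Without both WT 1 and KO 2 it was -0.096 with 35 of 48 below 0.

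In the beta ring all 7 members lay below 0, from -0.23 to -0.02, and 5 of 7 without WT 2. Relative to the WT mean the ring's median was -0.015, -0.18 and -0.12 in KO 1 to KO 3. In WT 1 to WT 3 it was -0.13, 0.14 and 0.030, so the libraries' medians overlapped. Psmb5, the chymotrypsin-like catalytic subunit, had 54.4, 42.3 and 49.3 CPM in KO and 49.0, 63.2 and 58.6 CPM in WT, with overlap through WT 1 (log2 fold change -0.23, 95% interval -0.47 to 0.02, adjusted p = 0.965 in edgeR). Of its principal transcript 57.1% of 50-base windows also occur in other annotated genes. Psmb6, the caspase-like subunit, stood at -0.10, and Psmb7, the trypsin-like subunit, at -0.03. Psmb2 had 29.0, 29.0 and 29.2 CPM in KO and 31.5, 35.7 and 30.2 CPM in WT. All KO libraries were below all WT libraries, but the gap to WT 3 was smaller than the spread among WT libraries (log2 fold change -0.16, 95% interval -0.37 to 0.06, adjusted p = 0.965 in edgeR). The remaining structural subunits Psmb1, Psmb3 and Psmb4 stood at -0.02, -0.19 and -0.15. Of the 50-base windows of the principal transcript, 55.8% for Psmb3 and 28.1% for Psmb7 also occur in other annotated genes. Without WT 2 Psmb3 was at -0.064 and Psmb4 at -0.072, and without WT 1 they were at -0.32 and -0.21. In the alpha ring Psma6 had 476, 480 and 496 CPM in KO and 459, 459 and 424 CPM in WT, without overlap (log2 fold change 0.11, 95% interval -0.03 to 0.25, adjusted p = 0.965 in edgeR). Of the other alpha subunits Psma4 stood at 0.06, Psma1 at -0.03, Psma3 at -0.05, Psma2 at -0.14 and Psma5 at -0.15.

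The regulatory particle was close to WT levels. In the ATPase ring the log2 fold changes ran from -0.13 for Psmc4 to 0.05 for Psmc2, with a median of -0.05. Of its 6 genes 5 lay below 0. Psmc3, the most abundant of its members, had 712, 681 and 687 CPM in KO and 676, 730 and 708 CPM in WT, and it overlaps Slc39a13 on the opposite strand. The 11 other subunits had a median of -0.03 and a range of -0.12 to 0.07. Psmd2, a large scaffold subunit of the base, had 529, 543 and 556 CPM in KO and 521, 555 and 550 CPM in WT. Psmd4, a ubiquitin receptor, had 159, 135 and 149 CPM in KO and 130, 154 and 159 CPM in WT. The groups overlapped in both genes, whose log2 fold changes were 0.0014 and -0.0025. Psmd14, the deubiquitinase that removes the ubiquitin chain from the substrate, stood at 0.07 (95% interval -0.12 to 0.27). Psmd13 had 107, 107 and 104 CPM in KO and 108, 110 and 114 CPM in WT. Its KO values lay just below WT values without overlap (log2 fold change -0.06, 95% interval -0.22 to 0.10), and 15.8% of its 50-base windows are shared, chiefly with the opposite-strand gene Sirt3. Psmf1, an inhibitor of the core particle in vitro, had 499, 442 and 505 CPM in KO and 459, 427 and 483 CPM in WT, overlapping (log2 fold change 0.08, 95% interval -0.08 to 0.24).

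Assembly chaperones were mostly below 0, without a call. Psmg1 to Psmg4 help to build the alpha ring and Psmd5, Psmd9 and Psmd10 the ATPase base. Of these 7 genes 6 were below 0, with a median log2 fold change of -0.14, and 4 were below 0 without WT 2. Relative to the WT mean the median of the 7 was -0.096, -0.10 and -0.12 in KO 1 to KO 3 and 0.014, 0.062 and 0.0073 in WT 1 to WT 3, so the libraries' medians did not overlap. In every other subunit group they overlapped. The medians of 2 marker lists also did not overlap. Those of the macrophage and immune markers were -0.24, -0.53 and -0.13 in KO and -0.10, 0.048 and 0.073 in WT, and those of the Sertoli markers -0.145, -0.191 and -0.163 in KO and -0.139, 0.087 and 0.017 in WT, KO 1 lying just below WT 1. Their part in the chaperones' values was not tested. Psmd9 was the member with an unadjusted p under 0.05 (0.0497 in edgeR, adjusted p = 0.965). It had 34.2, 33.1 and 34.5 CPM in KO and 39.9, 37.4 and 39.0 CPM in WT, all KO values below all WT values (log2 fold change -0.19, and -0.22 to -0.17 with 1 library left out). Its unadjusted p was not under 0.05 in DESeq2, limma-voom or any edgeR fit with 1 library left out. Psmg2 had 35.3, 38.9 and 38.5 CPM in KO and 43.9, 46.9 and 38.0 CPM in WT, overlapping through WT 3 (log2 fold change -0.19, 95% interval -0.41 to 0.02). Psmd10 stood at 0.01, Psmg1 at -0.02 and Psmd5 at -0.15, and the scarce Psmg3 and Psmg4, at 2.61 and 5.13 CPM in KO and 2.83 and 5.67 CPM in WT, at -0.11 and -0.14. Psmg4 was at -0.0034 without WT 3 and -0.25 without WT 1, and Psmg3 changed sign without WT 2, at 0.22.

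**Figure D4:**
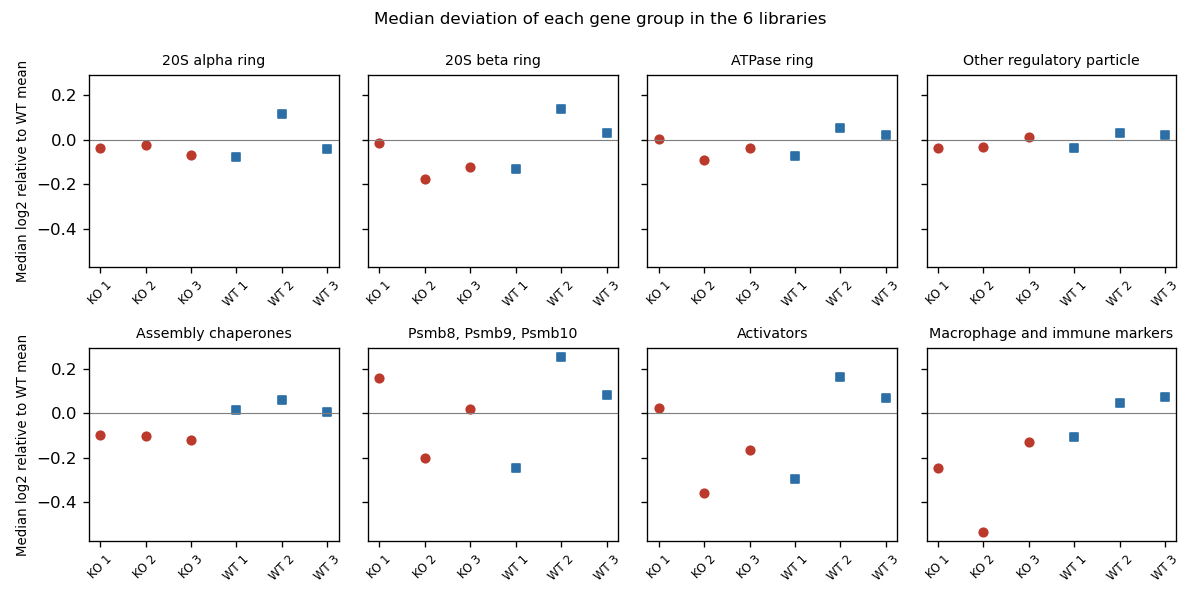
Median over the genes of each group of log2(CPM + 1) relative to the WT mean, with 1 point per library, KO circles left of WT squares. The assembly chaperones lie at -0.12 to -0.096 in KO and 0.0073 to 0.062 in WT, and the macrophage and immune markers are lowest in KO 2, at -0.53. KO and WT overlap in the panels of the other subunit groups.

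Genes that work with the proteasome showed no lean in direction. The list held 34 genes, all tested, for further subunits and assembly factors, ubiquitin receptors that shuttle substrates, ubiquitin and its activating enzymes, the Vcp segregase and the transcription factor Nfe2l1 with its processing enzymes. Of these 0 were called, 19 lay above 0 and 15 below, and the median log2 fold change was 0.03. Before adjustment edgeR gave 3 of them p under 0.05 (8.82%, against 4.63% of all genes). KO and WT values did not overlap for 17.6% of the list, against 9.32% of all genes. In 4 of these genes KO lay above, Ufd1 among them, and in 2, Pomp and Ubb, KO lay below. Sem1, a small subunit of the regulatory particle, had 49.1, 41.5 and 41.0 CPM in KO and 47.9, 62.5 and 51.4 CPM in WT, overlapping through KO 1 (log2 fold change -0.30, unadjusted p = 0.0184 and adjusted p = 0.965 in edgeR). Pomp, the maturation factor of the core particle, had 38.4, 35.0 and 38.9 CPM in KO and 39.8, 47.5 and 43.0 CPM in WT, without overlap (log2 fold change -0.21, adjusted p = 0.965 in edgeR). Ufd1, a cofactor of Vcp, had 110, 109 and 127 CPM in KO and 94.8, 95.1 and 106 CPM in WT, with all KO values above all WT values (log2 fold change 0.23, adjusted p = 0.965 in edgeR). The ubiquitin gene Ubb stood at -0.13, Ngly1, whose product processes the Nfe2l1 factor, at 0.15, and the ubiquitin-activating enzyme gene Uba1 at 0.15, each with an adjusted p of 0.965 in edgeR.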

How the data were processed

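Whole-testis RNA was measured by RNA sequencing in 3 KO and 3 WT libraries (VAHTS mRNA-seq v2 kit, per the labels' protocols). HISAT2 2.0.0 and mm10 are named in the submitters' processing notes; no counting tool or strand setting is named. Per the file headers, the deposited table holds raw read counts by Ensembl gene and a gene length. Columns were matched by genotype and replicate number, with 0 left unmatched.

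Genes passing filterByExpr (minimum count 10, minimum total 15) were fitted without covariates in edgeR 4.0.16 (TMM, glmQLFit, glmQLFTest; R 4.3.3), adjusted by Benjamini-Hochberg over all 19320 genes, threshold 0.05; the procedure was tested on simulated data. Deposited lengths exceeded the principal GENCODE M21 transcript by up to 3.36 times, so levels between genes use the latter, chosen after the data were seen. Ratios used counts plus 0.5 per deposited length. Windows of 50 bases of principal transcripts were searched in all other M21 transcripts on both strands. Of the members 24 shared none and 15 shared over 10% of windows. Coordinates of 47 members equal those in M21.

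Members, lists and the naming rule (all members, the target and the 6 associated genes with the smallest p) were chosen with earlier results of these data known. Alternatives were other scalings and filters, DESeq2 1.42.0, limma-voom (limma 3.58.1), the replicate number as a block, libraries left out, and for ratios another pseudocount or length. The number of libraries and read counts limit the precision; every pair of libraries differed by more than sampling noise, and floors cover counting error only.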

Additional observations from a re-analysis of the deposited data

How the results depend on the processing

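In edgeR, DESeq2, limma-voom and every alternative run, 0 proteasome genes and 0 associated genes were called. The count of called genes over all genes was 1, and it was 50 with no low-count filter, 2 with DESeq2, 9 without WT 1 and KO 2, and 1 to 3 with 1 library left out. Proteasome genes at an unadjusted p under 0.05 numbered 1 (2.08%, against 4.63% of all genes). There were 0 with DESeq2 size factors, upper quartile scaling, DESeq2, limma-voom or the replicate block, where all genes had 3.5% to 4.64%. With no filter there were 2 (4.08%, against 4.98% of all genes). Without WT 1 and KO 2 there were 4 (8.33%, against 8.51%). With 1 library left out there were 0 to 7, where all genes had 2.48% to 7.34%. The 7 arose without WT 1 (14.6%, against 7.14% of all genes in that fit) and were Psmb3, Psmb4, Psmb5, Psmb9, Psme2 and Psme2b, lower, and Psme4, higher, with adjusted p from 0.591 to 0.697 in edgeR. Associated genes at that threshold numbered 3, 5 with no filter and 0 to 4 with 1 library left out. The cause of these moves was not tested. With 1 library left out the differences of the log2 ratios ran from -0.15 to 0.22 for Psmb10 over Psmb7, -0.013 to 0.19 for Psma8 over Psma7 and -0.15 to 0.062 for Psme4 over Psme3, changing direction. They ran from 0.29 to 0.80 for Psmb8 over Psmb5, 0.20 to 0.67 for Psme4 over Psme1 and Psme2, and -0.82 to -0.56 for Psmb9 over Psmb6, keeping it. Of the 48 members' fold changes 43 moved by over 1.5 times on the log2 scale or changed sign with some library left out, most often (33) without WT 2 and least often (15) without KO 3.

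Deviations of same-numbered libraries correlated at -0.17, -0.029 and 0.11, and those of differently numbered libraries at -0.17 to 0.19. With so few libraries these values cannot show whether the numbers pair the samples, and the labels do not say. The block changed no call.

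Genes near 0 changed sign. Psmd4 was 0.000369 with DESeq2 size factors, 0.00363 with upper quartile scaling, 0.000370 in DESeq2 and 3.79e-06 in limma-voom. With library size alone Psmb10 was -0.0070, Psmd2 -0.011 and Psmd10 -0.000324, and with no filter Psmd2 was -0.000319. Without WT 1 and KO 2, Psmb10 was -0.17, Psmc6 0.034 and Psmd2 -0.023. With 1 library left out the lowest and highest values were -0.10 and 0.035 for Psma1, -0.15 and 0.0037 for Psma7, -0.049 and 0.10 for Psma8, -0.071 and 0.011 for Psmb1, -0.085 and 0.014 for Psmb7, -0.23 and 0.16 for Psmb10, -0.053 and 0.0019 for Psmc3, -0.10 and 0.049 for Psmc6, -0.026 and 0.021 for Psmd2, -0.089 and 0.063 for Psmd4, -0.087 and 0.017 for Psmd6, -0.068 and 0.026 for Psmd7, -0.057 and 0.079 for Psmd10, -0.024 and 0.041 for Psmd12, -0.10 and 0.032 for Psmg1, and -0.38 and 0.22 for Psmg3. The median of all genes lay between -0.015 and 0.0030 under the 4 scalings. Read counts limit Psmb8, Psmb9 and Psmg3.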
